A study of Homo sapiens with 8 samples.

Results

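The genes described here are 10 targets of the transcription factor NRF2, chosen by name for their place in this pathway, with earlier results of these data known. They are AKR1B10, AKR1C1, AKR1C2, AKR1C3, ALDH1A1, ALDH3A1, NQO1, GCLM, TXNRD1 and SRXN1. All 10 have a row among the 60664 genes of the count table. SRXN1, which encodes the sulfiredoxin that repairs oxidized peroxiredoxins, had 0 counts in all 8 libraries and is read as not measured. In GENCODE 44, 90.7% of its exon bases lie inside the exons of another gene on the same strand, and the part of this overlap in the absence of counts was not tested. The 9 others were all among the 15066 genes kept by the filter on low counts.

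RNA was sequenced from A549 cells, a human lung adenocarcinoma line, in 8 libraries that formed 4 groups of 2. Untreated cells received neither agent, and the other groups received IFN-γ, AX-0085 or both. AX-0085 is a kinase inhibitor that the study picked from a screen of candidates on a PD-L1 reporter, and IFN-γ is the interferon that acts through the kinase JAK2. The labels give 20 ng IFN-γ, which the methods of the study give per mL, then AX-0085 at 0.5 μM after 24 h and another 24 h before RNA was taken. All groups share the same cell line, so the values describe this 1 line. No label says whether the 2 libraries of a group came from separate cultures, so p-values measure only the spread between these libraries, which may be technical.

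NRF2, encoded by NFE2L2, is normally bound by KEAP1 and handed to a CUL3 ubiquitin ligase for degradation. When KEAP1 is oxidized, bound by an electrophile or mutated, NRF2 accumulates, pairs with a small MAF protein and binds antioxidant response elements beside genes for glutathione and thioredoxin metabolism, NADPH supply and the clearance of reactive carbonyls. A549 is known for a KEAP1 mutation and a high NRF2 activity, and lung adenocarcinomas often carry such mutations. The mutation itself cannot be seen in gene counts.

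The core letters of an antioxidant response element, TGACNNNGC on either strand, were searched in the 1000 bases before the RefSeq gene start (GRCh38). A start was matched for 8 of the 10 genes, the exceptions being AKR1B10 and ALDH3A1. The letters stood in this window in 3 of the 8 genes (37.5%), against 32.5% of 22198 promoters of protein-coding genes, a share near the background. The 3 matches are printed because they lie before 3 of the genes whose values are compared here. Each run is written 5′ to 3′ on the strand of its gene, and the capitals mark the matched letters, which in GCLM and TXNRD1 read TGACTAAGC and TGACAAAGC on the opposite strand.
NQO1: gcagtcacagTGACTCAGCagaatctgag
GCLM: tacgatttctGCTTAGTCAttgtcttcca
TXNRD1: gtggatttctGCTTTGTCAttctgactct
The NQO1 run is at chr16:69726997-69727025 with its match at -455 from the start, inside an exon of the divergent noncoding gene NQO1-DT in GENCODE 44. The GCLM run is at chr1:93909446-93909474 with its match at -34 from the start, and 11 of its bases are in an annotated GCLM exon. The TXNRD1 run is at chr12:104286920-104286948 with its match at -102 from the start, inside an exon that GENCODE 44 annotates for TXNRD1. The letters TTCNNNGAA, the core of a site for STAT factors, were found in the same window of 1 of the 8 genes, GCLM, against 24.1% of the 22198 promoters. Such a match is a description of letters in a window and says nothing of binding.

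The libraries held between 20672828 and 29978251 counts, and 3 counts, used as the lower limit of detection, corresponded to 0.100 to 0.145 CPM (counts scaled to library size). With GCLM at 4173 counts in its shallowest library, counting error was small for each of the 9 genes. GBP1, a gene that answers to IFN-γ, was higher with IFN-γ than in untreated cells by 11.49 on the log2 scale, the direction the labels imply. Mitochondrial genes took 2.72% to 3.55% of the counts in untreated cells, 4.12% to 5.73% with AX-0085, 1.71% to 1.82% with IFN-γ and 2.87% to 3.43% with both. The summed level of the 6 epithelial markers was 8821 to 9550.5 CPM in untreated cells, 5759 to 6089 with AX-0085, 6512 to 7398 with IFN-γ and 7221 to 7304 with both. Of the immune markers, CD3E was at 0 in every library and PTPRC had at most 1 count, while CD68, also at 0, has 81.6% of its exon bases inside the exons of another gene on the same strand and is read as not measured. The 5 fibroblast markers had 265 to 275 counts together in untreated cells, 229 to 256 with AX-0085, 76 to 87 with IFN-γ and 188 to 220 with both, of which all but 1 to 8 counts in a library were of COL1A1, with COL1A2 at 0 throughout. A549 cells are often used as a model of alveolar type 2 cells, but the 3 markers of this cell type had only 1 to 12 counts together in a library, with SFTPA1 at 0 throughout. Like SRXN1, the markers CD3E, COL1A2 and SFTPA1 had 0 counts in all libraries. They are read as not measured too and say nothing of these cell types.

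The 9 genes were among the abundant transcripts of untreated A549 cells, where they took 2.58% ± 0.0594 of all counts (SD, n = 2). Their share was 3.03% ± 0.0802 with AX-0085, 2.09% ± 0.0298 with IFN-γ and 2.42% ± 0.0807 with both. Per kilobase of exon, AKR1B10 was the most abundant at 3194 ± 5.92 RPKM (CPM per kilobase of exon, SD, n = 2), rank 8 of the 15025 genes with an annotated length. ALDH1A1 followed at 2634 ± 32.4 RPKM and rank 10, then NQO1 at 754 ± 52.4, AKR1C2 at 592 ± 1.53, AKR1C3 at 505 ± 10.3, TXNRD1 at 316 ± 4.48, ALDH3A1 at 264 ± 2.92 and AKR1C1 at 115 ± 0.0728. GCLM was the lowest at 39.9 ± 0.744 RPKM and rank 913. Neighbours in this order differed by more than their SD, but the order depends on the gene length used: with the length of the longest transcript in place of all exon bases, AKR1C3 stood at 1407 RPKM, above AKR1C2 at 1120 and NQO1 at 886, and ALDH1A1 at 3568 stood above AKR1B10 at 3497. All values between groups below are CPM scaled by TMM factors (edgeR's correction for composition), which need no gene length.

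**Figure D1:**
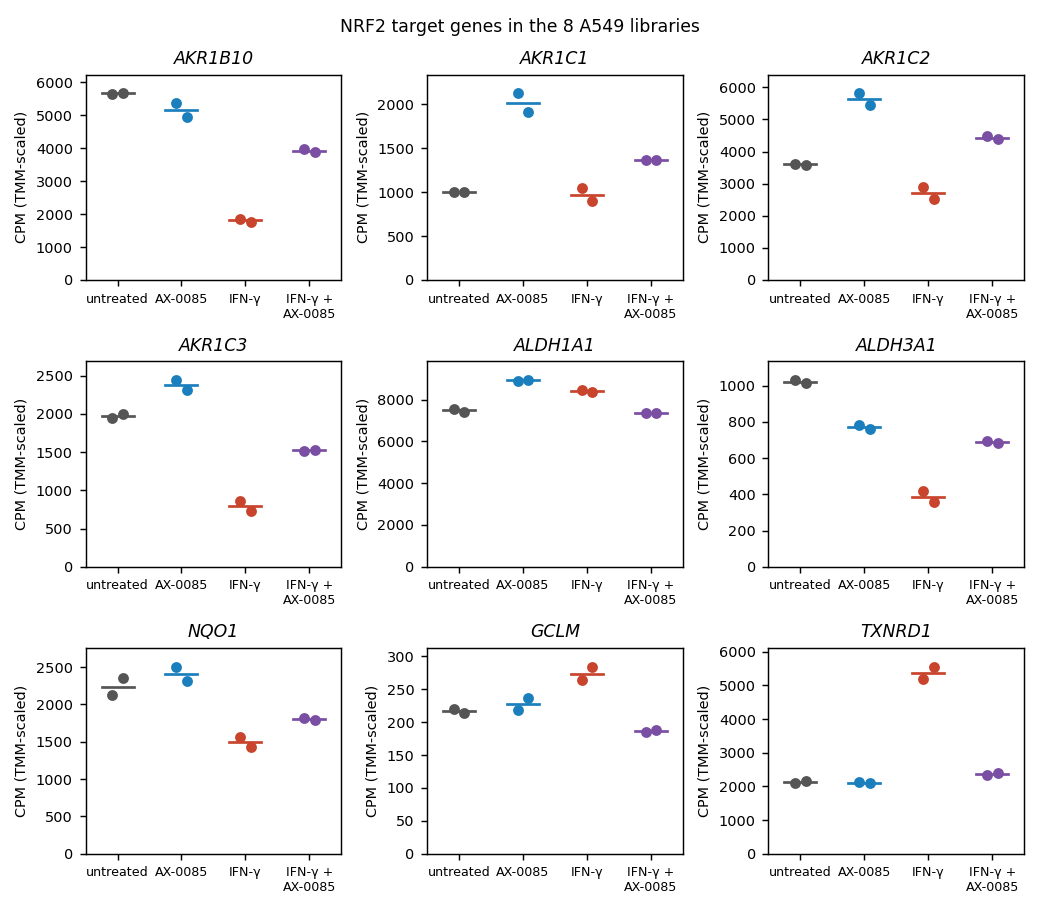
TMM-scaled CPM (linear axes from 0) of the 9 measured genes in each of the 8 libraries; each point is a library and each bar the mean of the 2 libraries of a group. AKR1B10, AKR1C3 and ALDH3A1 are lowest with IFN-γ, TXNRD1 is highest with IFN-γ at 5194 and 5547 CPM, and AKR1C1 and AKR1C2 are highest with AX-0085.

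The first comparison asks what IFN-γ alone did to these genes. AKR1B10, AKR1C3 and ALDH3A1, which reduce or oxidize reactive carbonyls, fell by more than 2-fold, while TXNRD1, the cytosolic thioredoxin reductase, rose by more than 2-fold. AKR1B10, an aldo-keto reductase of aldehydes and retinal at chr7:134527567-134541412, was at 5655 and 5670 CPM in untreated cells and at 1844 and 1773 CPM with IFN-γ. The groups lay far apart, with a log2 change of -1.65 (SE 0.08, quasi-likelihood test of edgeR, Benjamini-Hochberg-adjusted p = 6.706e-10). Here and below the SE is the size of the log2 change over the square root of the test's F. The 95% intervals below take this SE and a normal distribution, so they are somewhat narrower than the test itself would give.

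AKR1C3, which reduces prostaglandins and ketosteroids and lies at chr10:5035354-5107686, was at 1948 and 2005 CPM in untreated cells and at 855 and 733 CPM with IFN-γ. It fell by 1.32 on the log2 scale (SE 0.08, edgeR, Benjamini-Hochberg-adjusted p = 8.411e-09), with no overlap between groups. Here and below, a lack of overlap only describes the values. For 2 libraries against 2 an exact permutation test gives no p below 0.333. The share of all genes without overlap was not counted. ALDH3A1, an aldehyde dehydrogenase of aromatic and medium-chain aldehydes at chr17:19737984-19748943, was at 1032 and 1016 CPM in untreated cells and at 417 and 360.0 CPM with IFN-γ. It fell by 1.40 (SE 0.07, edgeR, Benjamini-Hochberg-adjusted p = 1.841e-09), again without overlap.

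TXNRD1, at chr12:104215779-104350307, went the opposite way. Its 2102 and 2144 CPM in untreated cells stood against 5194 and 5547 CPM with IFN-γ, a log2 change of 1.34 (SE 0.07, edgeR, Benjamini-Hochberg-adjusted p = 2.537e-09). Every IFN-γ library was above every untreated one.

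The 5 others did not pass the 2-fold threshold with IFN-γ. NQO1, the quinone reductase at chr16:69706996-69726668, was at 2129 and 2349 CPM without and 1560.0 and 1430.4 CPM with IFN-γ, a difference of -0.58 (edgeR, Benjamini-Hochberg-adjusted p = 1.715e-05). AKR1C2, a ketosteroid reductase at chr10:4987775-5018031, was at 3607 and 3593 CPM without and 2909 and 2517 CPM with IFN-γ, a difference of -0.41 (edgeR, Benjamini-Hochberg-adjusted p = 0.0007278). In both genes the IFN-γ libraries were the lower ones. GCLM, the modifier subunit of glutamate-cysteine ligase at chr1:93885199-93909456, was at 219.5 and 214 CPM without and 264 and 284 CPM with IFN-γ, higher by 0.34 (edgeR, Benjamini-Hochberg-adjusted p = 0.000234).

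For the remaining pair the test gave no difference. AKR1C1, at chr10:4963253-4983283 and close in sequence to AKR1C2, was at 1006 and 1005 CPM in untreated cells, between the 1043 and 897 CPM of the IFN-γ libraries, and its log2 difference was -0.05 with a 95% interval from -0.21 to 0.11. ALDH1A1, the retinal dehydrogenase at chr9:72900671-73080442, was at 7544 and 7414 CPM without and 8456 and 8351 CPM with IFN-γ. These groups did not overlap, but the difference of 0.17 had an adjusted p of 0.0677 (edgeR, Benjamini-Hochberg).

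With IFN-γ, then, 1 of the 9 genes was called higher and 3 were called lower, where a call needs an adjusted p under 0.05 and a change over 2-fold. Of all 15066 genes tested, 27.5% were called, 10.3% higher and 17.2% lower. The median log2 change was -0.41 over the 9 genes and -0.06 over all genes. By the adjusted p alone, 2 were higher and 5 lower, against 32.1% and 36.0% of all genes and 68.1% in either direction. In the same comparison 5 of the 6 epithelial markers were called lower, with a median of -1.56 over the 6 on the log2 scale. The other, KRT7, was higher by 0.74 (edgeR, Benjamini-Hochberg-adjusted p = 5.17e-06). The fibroblast marker COL1A1 fell by 1.45, and the part of these shifts in the result was not tested. In bulk RNA, fewer cells that express a gene and less of its RNA per cell cannot be told apart. Scaling by library size alone moved the median of all genes from -0.06 to -0.18. Such a shift moves every gene alike, so that by construction AKR1B10 lay at -1.59 and TXNRD1 at 1.40 relative to this median under either scaling.

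**Figure D2:**
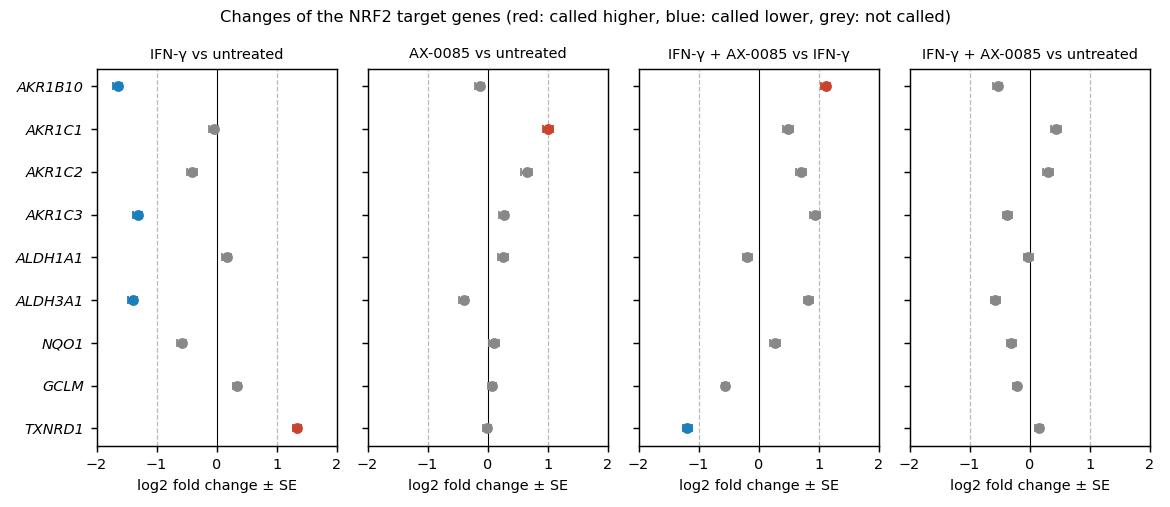
Log2 fold changes (horizontal axes) of the 9 genes in 4 comparisons, with bars of 1 SE from the quasi-likelihood test and dashed lines at 2-fold; red points were called higher, blue points lower and grey points not called. IFN-γ against untreated cells holds 4 coloured points, AX-0085 against untreated 1, both against IFN-γ 2 and both against untreated none.

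The second comparison asks what AX-0085 did without IFN-γ. AKR1C1 was higher and AKR1C2 followed it, while AKR1B10, NQO1, GCLM and TXNRD1 differed little from untreated cells. AKR1C1 stood at 2125 and 1909 CPM with AX-0085 against 1006 and 1005 CPM, a log2 change of 1.00 (SE 0.08, edgeR, Benjamini-Hochberg-adjusted p = 3.915e-07). This lies at the 2-fold threshold, and the call was lost with DESeq2 (0.998), with its size factors (1.00, just under the threshold), without a filter (0.991), with only these groups fitted (0.995) and without the library AX-0085 replicate 1 (0.93), with the difference itself between 0.93 and 1.08 in every alternative. AKR1C2 was at 5817 and 5452 CPM with AX-0085 against 3607 and 3593 CPM, higher by 0.65 (SE 0.08, edgeR, Benjamini-Hochberg-adjusted p = 2.76e-05). For these neighbours the counting matters: of the pieces of their exons as long as a read, 22.0% of those of AKR1C2 also occur in AKR1C1 and 11.5% of those of AKR1C1 also occur in AKR1C2, so the split of counts between them is uncertain.

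AKR1C3, with 5.24% of its pieces shared, was at 2443 and 2311 CPM with AX-0085, higher than untreated cells by 0.27 (edgeR, Benjamini-Hochberg-adjusted p = 0.01125). ALDH1A1 was at 8900 and 8930 CPM, higher by 0.25 (edgeR, Benjamini-Hochberg-adjusted p = 0.01339). ALDH3A1 was the exception, at 786 and 763 CPM and lower by 0.40 (edgeR, Benjamini-Hochberg-adjusted p = 0.0003474). None of these groups overlapped, a weak description with 2 libraries per group. With each library left out, the change stayed between 0.23 and 0.31 for AKR1C3 and between 0.24 and 0.28 for ALDH1A1. Neither kept an adjusted p under 0.05 in every such fit, while ALDH3A1 did.

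The 4 others stayed near their untreated values. AKR1B10 was at 5359 and 4943 CPM with AX-0085, and its difference of -0.14 had a 95% interval from -0.28 to 0.010. NQO1 was at 2503 and 2317 CPM (0.11, interval -0.04 to 0.26), and 1 of its AX-0085 libraries lay below an untreated one; 12.5% of its pieces occur in an antisense gene. GCLM was at 219 and 237 CPM (0.07, interval -0.05 to 0.19), and TXNRD1 was at 2119 and 2096 CPM (-0.01, interval -0.15 to 0.13). These intervals are unadjusted and somewhat too narrow, as said above. The largest difference they hold is the -0.28 of AKR1B10, so differences of about this size are not excluded. As the intervals are too narrow, somewhat larger ones are not excluded either.

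Over the 9 genes, AX-0085 alone gave 1 call, higher, against 12.0% of all genes called, 6.41% higher and 5.62% lower. The median change was 0.11 over the 9 genes and 0.01 over all genes. With the adjusted p alone, 4 of the 9 were higher and 1 was lower, against 26.7% and 26.6% of all genes and 53.3% in either direction. This comparison and that of IFN-γ share the untreated libraries, so their changes are not independent.

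The third comparison asks what the addition of AX-0085 did to IFN-γ-treated cells. The genes that had fallen with IFN-γ were higher again and TXNRD1 was lower again, although the comparisons share the IFN-γ libraries, so that a chance deviation of these libraries moves both in opposite directions. AKR1B10 was at 3961 and 3889 CPM with both agents against 1844 and 1773 CPM with IFN-γ, a rise of 1.12 on the log2 scale (SE 0.08, edgeR, Benjamini-Hochberg-adjusted p = 3.188e-08). TXNRD1 was at 2331 and 2388 CPM against 5194 and 5547 CPM, and it fell by 1.19 (SE 0.07, edgeR, Benjamini-Hochberg-adjusted p = 9.937e-09). In both genes all libraries of a group were on the same side of the other group.

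AKR1C3 was at 1520.1 and 1528 CPM with both agents, higher than with IFN-γ by 0.94, below the 2-fold threshold (edgeR, Benjamini-Hochberg-adjusted p = 2.503e-07). It was called when libraries were scaled by size alone (1.07) or without IFN-γ replicate 1 (1.05). ALDH3A1 was at 695 and 682 CPM, higher by 0.83 (edgeR, Benjamini-Hochberg-adjusted p = 3.338e-07). AKR1C2 was at 4473 and 4385 CPM and higher by 0.71, and AKR1C1 at 1366 and 1362 CPM and higher by 0.49.

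Smaller differences were measured for the last 3. NQO1 was at 1817 and 1796 CPM with both agents, higher than with IFN-γ by 0.27 (edgeR, Benjamini-Hochberg-adjusted p = 0.006974). GCLM was at 185 and 188 CPM, lower by 0.56 (edgeR, Benjamini-Hochberg-adjusted p = 3.083e-06), and below its level in each of the 6 other libraries. ALDH1A1 was at 7360 and 7358 CPM, lower by 0.19 (edgeR, Benjamini-Hochberg-adjusted p = 0.04127). The last value and that of NQO1 passed an adjusted p of 0.05 with all libraries but not with each library left out, where the largest adjusted p was 0.1565 for ALDH1A1 and 0.05141 for NQO1 (edgeR).

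In this comparison 1 of the 9 genes was called higher and 1 lower, against 24.8% of all genes called, 16.5% higher and 8.28% lower. All 9 had an adjusted p under 0.05, 6 of them higher and 3 lower, against 33.7% and 32.8% of all genes and 66.5% in either direction. The median change was 0.49 over the 9 genes and 0.03 over all genes. At the same time 3 of the 6 epithelial markers were called higher and none lower, with a median of 0.99, and by the adjusted p alone 4 were higher and 2 (KRT7 at -0.22 and KRT18 at -0.17) were lower. COL1A1 rose by 1.097, and the part of these markers in the result was not tested.

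The changes with AX-0085 with and without IFN-γ come from different libraries, and their difference was tested as the interaction in the same model. For AKR1B10 the change with AX-0085 was -0.14 without and 1.12 with IFN-γ, a difference of 1.25 (SE 0.11, edgeR, Benjamini-Hochberg-adjusted p = 8.001e-07). For ALDH3A1 it was -0.40 without and 0.83 with IFN-γ, a difference of 1.23 (SE 0.10, edgeR, Benjamini-Hochberg-adjusted p = 5.873e-07). For TXNRD1 it was -0.01 without and -1.19 with IFN-γ, a difference of -1.18 (SE 0.10, edgeR, Benjamini-Hochberg-adjusted p = 8.127e-07).

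These were the 3 of 9 genes called for the interaction, 2 higher and 1 lower, against 18.6% of all genes, 12.1% higher and 6.46% lower. Below the 2-fold threshold, AKR1C3 (0.67) had a larger change with AX-0085 in the presence of IFN-γ, and AKR1C1 (-0.51), GCLM (-0.63) and ALDH1A1 (-0.44) had lower values of this difference, each with an adjusted p under 0.05 (edgeR, Benjamini-Hochberg, 3 higher and 4 lower of 9, against 26.7% and 23.6% of all genes and 50.3% in either direction). For AKR1C2 the difference was 0.06 (95% interval -0.17 to 0.29, adjusted p = 0.6941) and for NQO1 it was 0.17 (95% interval -0.05 to 0.38, edgeR, Benjamini-Hochberg-adjusted p = 0.2237).

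**Figure D3:**
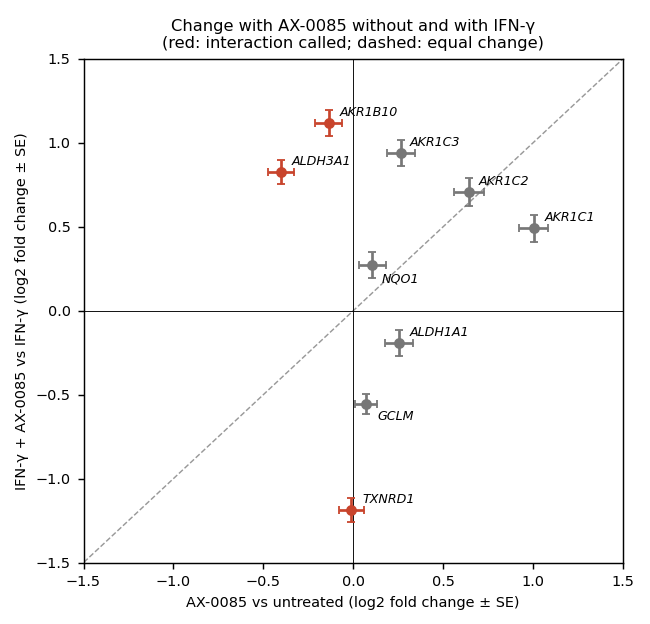
Log2 change with AX-0085 against untreated cells (horizontal axis) and against IFN-γ (vertical axis) for the 9 genes, with bars of 1 SE; the dashed line marks equal change and red points were called for the interaction. AKR1B10 and ALDH3A1 lie far above the line, TXNRD1 lies far below it, and AKR1C2 lies on it.

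Cells with both agents can also be set against the other controls. Against AX-0085 alone, none of the 9 genes was called with edgeR or with DESeq2, against 3.52% of all genes with edgeR (1.79% higher and 1.73% lower). By the adjusted p, 7 were lower and none was higher, against 17.4% of all genes lower, 17.3% higher and 34.7% in either direction. AKR1C2, GCLM and ALDH1A1, which are among the 7, did not keep an adjusted p under 0.05 in every fit with a library left out. AKR1C3 was the lowest at -0.64 (edgeR, Benjamini-Hochberg-adjusted p = 5.355e-05), and TXNRD1 was at 0.16 (edgeR, Benjamini-Hochberg-adjusted p = 0.09113). The median was -0.35, against -0.01 over all genes.

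Against untreated cells, again none of the 9 was called with edgeR or DESeq2, against 14.7% of all genes with edgeR (7.51% higher and 7.23% lower). AKR1C1 (0.44) and AKR1C2 (0.30) were higher by the adjusted p, and 5 genes were lower, among them ALDH3A1 (-0.57) and AKR1B10 (-0.53), against 28.1% of all genes higher, 28.8% lower and 56.9% in either direction (edgeR, Benjamini-Hochberg). NQO1 and GCLM, also among the lower ones, did not keep an adjusted p under 0.05 in every fit with a library left out. The levels of TXNRD1 (0.15) and ALDH1A1 (-0.02) were nearest to those of untreated cells, with an adjusted p of 0.08112 and 0.8128 (edgeR). With both agents, AKR1B10, AKR1C3, NQO1 and ALDH3A1 therefore lay between their IFN-γ and their untreated values.

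Across the 8 libraries, the log2 CPM of AKR1B10 had a Pearson's r of 0.975 with that of ALDH3A1, 0.969 with AKR1C3, 0.923 with NQO1, -0.659 with GCLM and -0.979 with TXNRD1. AKR1C1 and AKR1C2 had an r of 0.935, with sequence shared between them. These are descriptions over 8 libraries that form 4 groups and share their depth and composition. By the same measure the genes outside all lists whose pattern was most like that of each gene were CTDSPL and PRSS23 for AKR1B10, NONO and EIF4BP3 for AKR1C1, RPL23 and APEX1 for AKR1C2, SCD5 and FBXL2 for AKR1C3, TCF19 and C1GALT1C1 for ALDH3A1, PARVB and ANXA2 for NQO1, ACVR1 and TUT7 for GCLM, DCAF1 and MTF1 for TXNRD1, and XPA and N4BP2L2 for ALDH1A1. EIF4BP3 is annotated as a processed pseudogene, whose counts are uncertain beside those of its parent gene. The genes named had an r between 0.973 and 0.998 and were the highest of 10231 candidates.

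The genes that control NRF2 were measured in the same libraries, 13 in all. NFE2L2 itself was at 109.7 and 112 CPM in untreated cells, 328 and 334 CPM with IFN-γ, 131 and 131 CPM with AX-0085 and 152 and 153 CPM with both. It rose by 1.58 on the log2 scale with IFN-γ (SE 0.05, edgeR, Benjamini-Hochberg-adjusted p = 2.989e-11) and fell by 1.12 upon adding AX-0085 (SE 0.05, edgeR, Benjamini-Hochberg-adjusted p = 8.199e-10). The NFE2L2 transcript was thus highest in the group where AKR1B10, AKR1C3 and ALDH3A1 were lowest and where TXNRD1 and GCLM were highest. The counts do not measure the NRF2 protein, whose level is set mostly by degradation.

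KEAP1, the adaptor that binds NRF2, was at 99.1 and 106 CPM in untreated cells and 114 and 104 CPM with IFN-γ, with overlap and a difference of 0.08 (edgeR, Benjamini-Hochberg-adjusted p = 0.2926). Of its ligase partners, CUL3 was lower by 0.39 and RBX1 by 0.82 with IFN-γ, neither past 2-fold, and RBX1 fell by 1.01 with both agents against untreated cells (edgeR, Benjamini-Hochberg-adjusted p = 2.495e-06). SQSTM1, whose protein p62 can bind KEAP1 and remove it, rose by 1.22 with IFN-γ (edgeR, Benjamini-Hochberg-adjusted p = 6.079e-09).

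BACH1, a repressor that competes with NRF2 for the same elements, was at 23.5 and 19.9 CPM in untreated cells and 62.8 and 76.4 CPM with IFN-γ, and rose by 1.68 (SE 0.11, edgeR, Benjamini-Hochberg-adjusted p = 1.466e-08). With both agents it was at 34.8 and 33.1 CPM and fell by 1.04 against IFN-γ (SE 0.10, edgeR, Benjamini-Hochberg-adjusted p = 1.393e-06). The small MAF genes, whose proteins pair with NRF2 and with BACH1, rose with IFN-γ too.

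MAFF was at 5.46 and 5.90 CPM in untreated cells and 48.5 and 43.1 CPM with IFN-γ, a rise of 3.01. With AX-0085 it was at 0.836 and 0.565 CPM, where it fell by 3.01, and with both agents at 0.544 and 0.989 CPM, where it fell by 5.96 against IFN-γ. MAFF was thus at or below 0.989 CPM in all 4 libraries with AX-0085, with IFN-γ or without it. MAFG rose by 1.25 with IFN-γ and fell by 1.42 upon adding AX-0085. MAFK was at 75.5 and 91.2 CPM in untreated cells, 319 and 316 CPM with IFN-γ, a rise of 1.93, and 238 and 228 CPM with both agents, where it remained higher than in untreated cells by 1.49 and higher than with AX-0085 alone by 1.32 (edgeR, Benjamini-Hochberg-adjusted p = 1.091e-08 and 2.98e-07).

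Of the 13 regulators, 6 were called higher and none lower with IFN-γ, against 10.3% and 17.2% of all genes, with a median of 0.79. With AX-0085 alone 1 was called, lower, against 5.62% of all genes. Upon adding AX-0085 to IFN-γ 4 were called lower and none higher, against 8.28% and 16.5% of all genes. NFE2L2, BACH1, MAFG and MAFF were also called for the interaction, with differences of -1.36, -1.63, -1.27 and -2.94, against 6.46% of all genes called lower and 12.1% higher. KEAP1 was lower in both comparisons with AX-0085, by 0.27 and 0.32, below the 2-fold threshold.

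**Figure D4:**
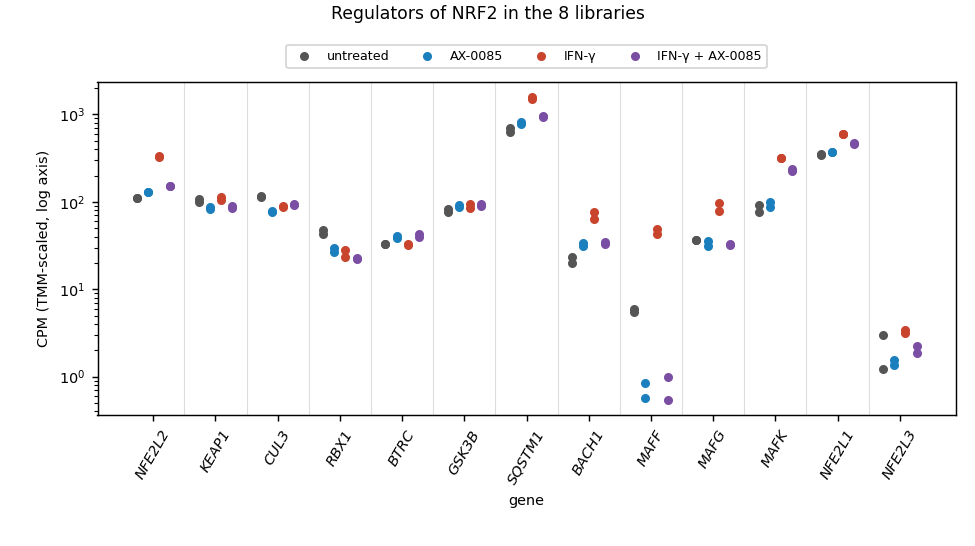
TMM-scaled CPM on a log axis of the 13 regulator genes, with the 8 libraries coloured by group and 2 points for each group. NFE2L2, SQSTM1, BACH1, MAFF, MAFG and MAFK are highest with IFN-γ, while KEAP1 stays between 83.1 and 114 CPM in all groups.

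A further 45 target genes of NRF2 were listed by role, of which 8 had 0 counts in all libraries (GPX2, GSTM3, GLRX, PRDX6, ABCB6, CBR1, CBR3 and UGT1A6) and were read as not measured, and ADH7 was too low to test. With IFN-γ, 3 of the 36 tested were called higher and 6 lower, 25% of the list against 27.5% of all genes, with a median of 0.01. CYP4F11, a fatty acid hydroxylase, rose by 1.09, OSGIN1, an oxidative stress-induced growth inhibitor, by 1.63 and ABHD4, a lipase, by 1.19.

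The falls included TKT, the transketolase of the pentose phosphate pathway, which was at 2534 and 2680.0 CPM in untreated cells and 952 and 893 CPM with IFN-γ, a fall of 1.5. GSTM4, a glutathione transferase, fell by 2.32 from a low level of 10.1 and 11.0 CPM, and ABCG2, an efflux pump of drugs and porphyrins, fell by 1.68. IDH1, an enzyme that makes NADPH from isocitrate, was higher by 0.50.

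Several well-known targets were not called with IFN-γ. GCLC, the catalytic partner of GCLM, was lower by 0.24 with IFN-γ, and SLC7A11, the cystine carrier, differed by 0.08 (edgeR, Benjamini-Hochberg-adjusted p = 0.002 and 0.53). TXN, the substrate of TXNRD1, and PRDX1, which TXN reduces, were lower with IFN-γ by 0.54 and 0.68. TXNRD1 and these partners therefore differed in direction, TXNRD1 past 2-fold and both others short of it. HMOX1, the heme oxygenase, was lower by 0.99, just short of 2-fold.

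With AX-0085 alone 5 of the 36 were called higher and none lower, with a median of 0.25, against 6.41% of all genes higher and 5.62% lower. In either direction this was 13.9% of the list against 12.0% of all genes. CYP4F3, a leukotriene hydroxylase, rose by 1.60, EPHX1, the microsomal epoxide hydrolase, by 1.17, IDH1 by 1.02, and CES1, a carboxylesterase, by 1.01. EPHX1 was at 129 and 131 CPM in untreated cells, 294 and 289.6 CPM with AX-0085, 119 and 110.5 CPM with IFN-γ and 340.0 and 349 CPM with both. The AX-0085 libraries were thus the higher ones with and without IFN-γ. Upon adding AX-0085 to IFN-γ, 8 of the 36 were called higher and none lower, against 16.5% of all genes higher and 8.28% lower, with a median of 0.21. In either direction this was 22.2% of the list against 24.8% of all genes. GSTM4 rose by 3.02, CYP4F3 by 1.91, TKT by 1.63 and EPHX1 by 1.59.

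**Figure D5:**
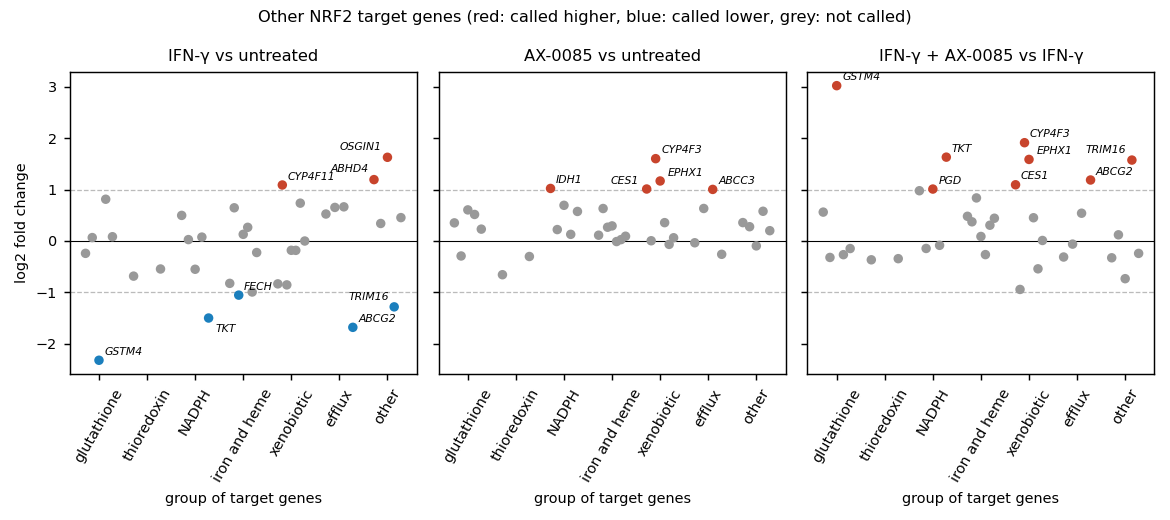
Log2 fold changes (vertical axis) of 35 of the 36 other NRF2 target genes tested, placed by role along the horizontal axis, in 3 comparisons; red points were called higher, blue points lower, grey points not called, and dashed lines mark 2-fold. IFN-γ holds 3 red and 5 blue points, AX-0085 holds 5 red points, and both against IFN-γ holds 8 red points with GSTM4 the highest at 3.02.

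The relatives of the measured genes in the aldo-keto reductase, aldehyde dehydrogenase and thioredoxin reductase families were counted for comparison, 29 in all with 21 tested. With IFN-γ 1 was called higher and 8 lower, against 10.3% and 17.2% of all genes, with a median of -0.70. ALDH4A1, a mitochondrial enzyme of proline breakdown, fell by 2.50, AKR7A2, a reductase of succinic semialdehyde, by 2.47 and ALDH5A1, the dehydrogenase of the same aldehyde, by 1.47, and ALDH1L2, the mitochondrial enzyme of formyltetrahydrofolate, rose by 1.31 from a very low level. With AX-0085 alone ALDH1L1, its cytosolic counterpart, rose by 2.61, also from a very low level (means of 0.563 CPM in untreated cells and 3.47 CPM with AX-0085). ALDH2, the mitochondrial acetaldehyde dehydrogenase, rose by 1.28, while AKR1B1, the aldose reductase, fell by 1.04. Upon adding AX-0085 to IFN-γ, 8 of the 21 were called higher and none lower, against 16.5% and 8.28% of all genes.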

How the data were processed

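RNA-seq of A549 cells was analysed in 8 libraries, 2 per group. According to the methods and the submitters' processing notes, the authors trimmed the paired reads of stranded mRNA libraries with Trim Galore 0.6.7, mapped them to GRCh38 with STAR 2.7.9a and assigned them to genes with the featureCounts function of Rsubread; the deposited values are whole-number counts without normalization. The annotation release, strand setting and treatment of reads with several matches are not given in the sources used here. Reads of close relatives or overlapping genes may be lost or assigned to the other gene by such counting.

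From the counts, genes passing filterByExpr entered the quasi-likelihood test of edgeR 4.0.16 (R 4.3.3) with TMM scaling, in 1 model of the 4 groups, with Benjamini-Hochberg adjustment over 15066 genes. The study used DESeq2, which is here an alternative (version 1.42.0). A call needed an adjusted p under 0.05 and a change over 2-fold, the study's thresholds. An exact permutation test of 2 libraries against 2 gives no p below 0.333 and was not used for single genes. Library totals were 20672828 to 29978251, and floors cover counting error only. The 2 libraries of a group differed by more than sampling noise (chi-square per degree of freedom 8.55 to 27.7). Each was counted as 1 replicate, but this spread may be technical and does not show that the libraries were independent. Log2 values used a prior count of 0.125. Exon lengths, positions and shared pieces came from GENCODE 44, promoter starts from RefSeq (GRCh38.p14). The procedure was run on counts simulated from the distribution that the test assumes, with log2 changes of 1.5 and 2 planted for IFN-γ against untreated cells. All planted genes were called, with 0 false calls. Changes near 2-fold, the other comparisons and the interaction were not checked in this way. Both planted changes exceed the 2-fold threshold, and a false call also needs a change over 2-fold, so this result was likely beforehand. How often calls are wrong in the real libraries was not tested.

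The genes and lists were chosen with earlier results of these data known. Named were all 10 genes, the regulators called in any comparison, the largest changes among called other targets (up to 4 per direction, mean log2 CPM 2 or more), up to 3 relatives per direction, and the 2 genes most alike to each; some results under this rule are not reported here. KEAP1, CUL3, GCLC, SLC7A11, TXN, PRDX1, HMOX1 and the genes at 0 counts are outside this rule and were chosen with their values in view. Alternatives were DESeq2, its size factors, library size alone, other filters, a replicate block, the adjusted p alone, only the groups compared, each library left out, another prior count and another gene length.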

Additional observations from a re-analysis of the deposited data

Results flagged for a closer look

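For 3 of the 9 genes the change with AX-0085 differed between cells with and without IFN-γ by more than 2-fold, by the interaction test of edgeR with Benjamini-Hochberg adjustment. Of all genes tested, 18.6% were called for this interaction. AKR1B10 had a difference of 1.25 (log2, edgeR, adjusted p = 8.001e-07) and ALDH3A1 of 1.23 (edgeR, adjusted p = 5.873e-07). In both genes the libraries with both agents were above those with IFN-γ, while those with AX-0085 alone were below the untreated ones. The latter difference was -0.40 for ALDH3A1, but only -0.14 for AKR1B10, with an adjusted p of 0.1425 (edgeR). TXNRD1 had a difference of -1.18 (edgeR, adjusted p = 8.127e-07). Its libraries with both agents were below those with IFN-γ, while those with AX-0085 alone overlapped the untreated ones. The 3 differences kept their direction and stayed over 2-fold in every alternative run, with AKR1B10 between 1.19 and 1.37, ALDH3A1 between 1.11 and 1.35 and TXNRD1 between -1.23 and -1.06.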

How the results depend on the processing

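The calls of the 9 genes for IFN-γ against untreated cells (4) and for the interaction (3) were as many in every alternative with the fold threshold, and those for both agents against IFN-γ (2) were 2 or 3. With the adjusted p alone, 7 genes passed with IFN-γ, 5 with AX-0085, 9 for both against IFN-γ, 7 for both against AX-0085, 7 for both against untreated and 7 for the interaction. Of the 36 other targets 29, 24, 30, 20, 26 and 21 passed in this order. Of all genes tested, 68.1%, 53.3%, 66.5%, 34.7%, 56.9% and 50.3% did. The single call with AX-0085 became 0 with DESeq2, with its size factors, without a filter and with only these groups fitted. The other targets called with AX-0085 numbered 3 instead of 5 without a filter, and for both against AX-0085 1 instead of 0 with DESeq2 and its size factors. Leaving out each library gave 4 to 4, 0 to 1, 2 to 3, 0 to 0, 0 to 0 and 3 to 3 calls among the 9 genes in the same order of comparisons, and 9 to 10, 4 to 5, 6 to 8, 0 to 1, 4 to 6 and 2 to 4 among the other targets.

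Differences near 0 changed sign. AKR1C1 with IFN-γ was at 0.00073 with DESeq2 and between -0.15 and 0.10 with each library left out, the highest without IFN-γ replicate 2. TXNRD1 with AX-0085 was at 0.0075 with at least 10 counts in every library, and between -0.018 and 0.0032 with each library left out, above 0 without untreated replicate 2, IFN-γ replicate 2 or replicate 1 with both agents. ALDH1A1 with both against untreated lay between -0.036 and 0.030, above 0 without untreated replicate 1, IFN-γ replicate 2 or replicate 1 with both, and the AKR1C2 interaction between -0.058 and 0.16, below 0 without IFN-γ replicate 2. The cause was not tested.

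Libraries with the same replicate number shared little deviation from their groups (correlations from -0.0738 to 0.0444 over 6 pairs of groups). This cannot show whether they were made as a set. The library names carry the letter A or B by replicate number, without saying what the letters stand for. With the replicate number as a block the calls among the 9 genes stayed at 4 with IFN-γ, 1 with AX-0085 and 2 for both against IFN-γ. The only count that moved was that of other targets called for the interaction, 4 instead of 3. All 36 RPKM levels moved with the gene length. A fit of only the groups compared was not run for the interaction, which needs all groups. With 2 libraries per group, a left-out library leaves a lone one that is assumed to vary like the other groups.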
